A study of Zea mays with 10 samples.

Results

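The long interval of maize chromosome 4 from 111 to 180 Mb was examined for small RNA in 10 libraries of 14-day-old seedlings. Its members are the 690 windows of 100 kb whose deposited position was on chromosome 4, at or above 111 Mb and below 180 Mb, out of 20584 windows on the 10 chromosomes. Windows were taken by position, but the bounds were set with earlier results of these data known. Leaf was sequenced in 714 (genotype P1-ww714), 714H (P1-ww714/B73), 9d9a (P1-vv9d9a), id1 (P1-wwid1), id4 (P1-wwid4) and B73, and root in id1, id4, 9d9a and B73, with 1 library for each line and tissue. The series addresses dosage effects of copy number alterations on small RNA. The lines are named for alleles of p1, a gene of chromosome 1 for a Myb-type factor that switches on red pigment synthesis, so the interval lies on another chromosome than p1. B73 is the inbred line from which the maize reference genome was made, and it carries none of the P1 alleles named above, and 714H carries the 714 allele over B73. How many plants went into a library is not stated in the labels. Leaf or root was taken from the sample titles, since leaf libraries carry the tissue label seedling. The windows carry no gene names, so neither tissue was checked against marker genes.

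Most small RNA in plants is small interfering RNA (siRNA), cut by Dicer-like enzymes from double-stranded RNA. Much of it comes from transposons and other repeats, where RNA polymerase IV and the RNA-dependent RNA polymerase that mop1 encodes in maize make the precursors, and such siRNAs guide DNA methylation back to matching sequence. MicroRNAs are cut from hairpin transcripts of their own genes, and 1 of them can supply most reads of a window. A window count sums all of these classes, together with any fragments of other RNAs. It says how many reads were placed in 100 kb of the reference, and not which small RNA they were. No source used here gives the genome build behind the windows. No window was therefore assigned to a gene, exon or intron, and no sequence is shown.

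Libraries held 8472011 to 18396214 reads, the B73 leaf library being the deepest. The median window of the interval held 168.5 reads in 714H leaf and 438 in B73 leaf, which are the lowest and highest of the 10 libraries and give a relative counting error (SE) of 7.70% and 4.78%. In 6 libraries every one of the 690 windows had reads, and in the 4 others 689 did. The count of 0 in 1 window allows up to 0.266 to 0.354 CPM (reads of the window scaled to 1000000 reads of the library) in those libraries. Intervals and limits of this kind cover counting error only, since the reads carry no molecular identifiers. No pair of leaf libraries agreed within sampling noise over the interval. The chi-square per degree of freedom, about 1 for noise alone, was 2.26 for 714H and 714, against 3.29 to 5.27 among id1, id4, 9d9a and B73, and 27.4 to 36.4 between 714 or 714H and those 4 lines.

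Small RNA was unevenly spread along the interval. In the leaf of id1, id4, 9d9a and B73, the median window level by 5 Mb block was lowest at 115 to 120 Mb, where the 4 libraries ran from 9.09 to 9.48 CPM, and highest at 155 to 160 Mb, where they ran from 59.8 to 62.9 CPM. The level stayed at 9.09 to 17.9 CPM in every block up to 140 Mb, was 24.8 to 27.3 CPM from 140 to 150 Mb and 44.5 to 47.9 CPM from 150 to 155 Mb. Beyond 160 Mb it dropped to 28.2 to 31.9 CPM and then 17.5 to 19.8 CPM, and it was 35.9 to 44.5 CPM over the last 10 Mb. Root followed the same course, with 6.78 to 7.92 CPM at 115 to 120 Mb and 58.1 to 67.1 CPM at 155 to 160 Mb. The 714 and 714H libraries lay within or close to the range of the other leaf libraries at both ends of the interval, and below it through its middle. At 150 to 155 Mb the median window had 22.7 CPM in 714 and 21.3 CPM in 714H.

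**Figure D1:**
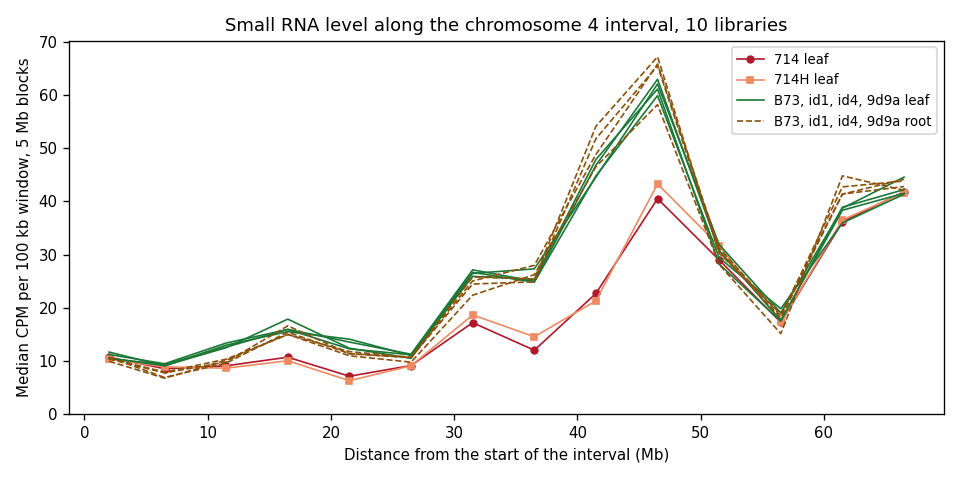
Median CPM per 100 kb window (y axis) in 5 Mb blocks, against distance in Mb from the start of the interval at 111 Mb (x axis), with 1 line per library. The 714 and 714H leaf lines run below the other leaf lines through the middle of the interval, with 22.7 and 21.3 CPM at 150 to 155 Mb against 44.5 to 47.9 CPM in the other 4, and meet them again beyond 160 Mb.

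Single windows differed far more than blocks. Over the 10 libraries, 61 of the 690 windows averaged above 100 CPM and 14 averaged below 1 CPM, the lowest being the window at 169.7 Mb with 0.152 CPM. The most read window was at 179.7 Mb, at the far end of the interval. It had 258 CPM in 714, 268 in 714H, 267 in 9d9a, 203 in id1, 237 in id4 and 244 in B73 leaf, and 268 in 9d9a, 318 in id1, 281 in id4 and 326 in B73 root. No leaf library stood apart there. The window at 174.0 Mb varied least of the 5 most read, with 232 CPM in 714, 228 in 714H and 220 to 227 in the other leaf libraries, and 208 to 232 in root. At 166.9 Mb, 714 with 283 CPM and 714H with 272 lay above the 214 to 227 CPM of the other leaf libraries, and root had 166 to 222. The remaining pair lay in the middle of the interval, and there 714 and 714H were far below. At 143.3 Mb they had 84.1 and 104 CPM, against 293 in 9d9a, 287 in id1, 313 in id4 and 294 in B73 leaf, while root had 282 to 333. The ratio of 714 to B73 leaf at this window was 0.286 (95% exact interval 0.266 to 0.308), and that of 714H to 714 was 1.23 (1.12 to 1.35). At 150.4 Mb they had 111 and 129 CPM, against 176 to 201 in the other leaf libraries, and root had 253 to 343 CPM.

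The comparison by line in leaf asks where along the interval each line departed from B73. Medians of the log2 ratio to B73 leaf, on the scale log2(CPM + 1), were taken over 1 Mb bins. In 714 and 714H the ratio dropped abruptly between adjacent bins. At 119 Mb it was 0.13 in 714 and 0.06 in 714H, and at 120 Mb it was -0.98 and -0.75. At the other end it was -0.53 and -0.62 at 156 Mb and then 0.05 and -0.03 at 157 Mb. Bins of id1, id4 and 9d9a stayed between -0.25 and 0.34 over the whole interval.

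**Figure D2:**
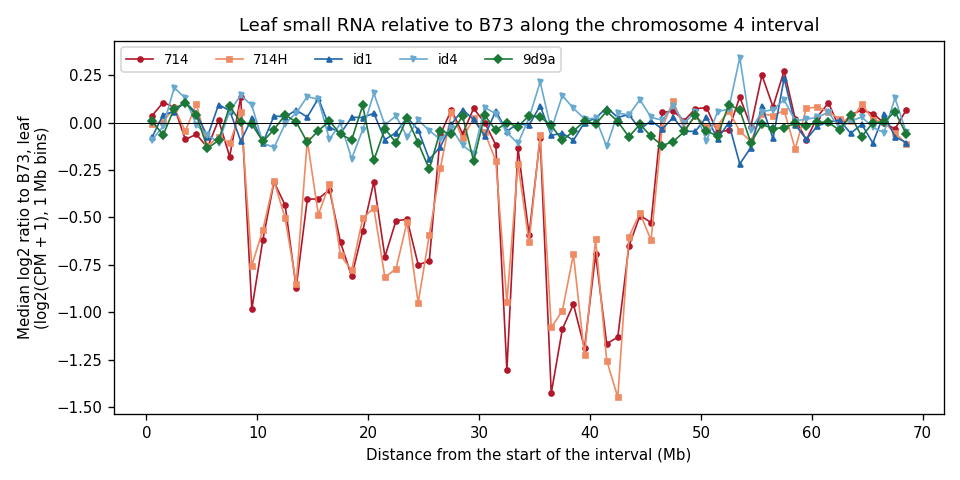
Median log2 ratio to B73 leaf per 1 Mb bin, on the log2(CPM + 1) scale (y axis), against distance in Mb from 111 Mb (x axis), for the 5 other leaf libraries. The 714 and 714H lines fall together to as low as -1.43 and -1.45 and lie near 0 at both ends and in a short stretch between, while id1, id4 and 9d9a lie between -0.25 and 0.34 throughout.

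These values divide the interval into 5 stretches, and in 2 of them 714 and 714H were low. A stretch was called low where the mean of the 714 and 714H bin medians was at or below -0.3, with gaps of 1 bin closed. Because these limits were drawn from the values themselves, the stretches are described with no test. The low ones ran from 120 to 137 Mb (170 windows) and from 143 to 157 Mb (140 windows). In the first, windows had a median log2 ratio to B73 of -0.58 for 714 and -0.59 for 714H, against -0.04 for 9d9a, 0.00 for id1 and -0.01 for id4. In the second these medians were -0.78 for 714 and -0.71 for 714H, against -0.01 for 9d9a, -0.00 for id1 and 0.03 for id4. Outside them the median window of 714 and 714H was close to B73. The median ratios of 714 and 714H were -0.05 and -0.01 from 111 to 120 Mb (90 windows), 0.00 and -0.06 from 137 to 143 Mb (60 windows), and 0.05 and 0.02 from 157 to 180 Mb (230 windows). Single windows there were not all close to B73. In order of position the SD of the window ratio was 0.53, 0.54 and 0.28 for 714. For 714H it was 0.52, 0.50 and 0.27, and for id1, id4 and 9d9a it was 0.19 to 0.29. In the first low stretch it was 0.61 for both 714 and 714H.

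Summed reads gave the same picture in level. From 120 to 137 Mb the summed level was 2392 CPM in 714 and 2404 CPM in 714H, against 3844 ± 45.4 CPM (SD, n = 4) in id1, id4, 9d9a and B73. From 143 to 157 Mb it was 4566 and 4627 CPM, against 7725 ± 25.2 CPM. Relative to B73 alone, 714 stood at 0.625 (95% exact interval 0.616 to 0.635) and 0.593 (0.587 to 0.599), and 714H at 0.629 (0.619 to 0.638) and 0.601 (0.594 to 0.607). The low stretches were drawn on the 714 and 714H values, so a gap to the other lines there follows from that choice. In the 3 remaining stretches the differences were smaller, but 714 and 714H lay outside the range of the other 4 leaf libraries in each. The sums were 1510 CPM in 714 and 1470 CPM in 714H against 1555 ± 27.3 CPM at 111 to 120 Mb, 1521 and 1478 against 1591 ± 27.3 CPM at 137 to 143 Mb, and 12109 and 11958 against 11621 ± 227 CPM at 157 to 180 Mb. At 111 to 120 Mb and 137 to 143 Mb they were below the lowest of the other lines, 1516 and 1559 CPM. The last stretch held the most reads of the 5, and there 714 and 714H were above the highest of the other lines, 11850 CPM.

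The low stretches were not low in every window. Of the 31 bins in them, 29 in 714 and 28 in 714H were at or below -0.3, and the bin at 146 Mb was nearest to B73, at -0.08 and -0.06. The lowest bin of 714 was at 147 Mb (-1.43) and that of 714H at 153 Mb (-1.45). Of the 310 windows in the low stretches, 51 in 714 and 50 in 714H were at or above their level in B73. At least 2-fold lower than B73 were 44 and 58 windows of 714 in the first and second low stretch, and 48 and 53 of 714H, against 2, 5 and 0 windows of 714 and 2, 4 and 0 of 714H in the other stretches in order of position. Over the whole interval that made 109 windows in 714 (15.8%) and 107 in 714H (15.5%). Across the genome 2.24% and 2.41% of windows were as low. In the rest of chromosome 4, 68 of 1725 windows were as low in 714 and 163 in 714H, and on chromosome 5 58 and 57 of 2179. Windows at least 2-fold higher numbered 9 in 714 (1.3% of the interval, 0.87% across the genome) and 5 in 714H (0.725% and 0.568%). At least 2-fold lower than B73 were 1 window of id1 (2.16% across the genome), 1 of id4 (1.11% across the genome) and 0 of 9d9a (1.41% across the genome). At least 2-fold higher were 1 window of id1, 5 of id4 and 1 of 9d9a, where 0.437%, 0.35% and 0.223% of windows across the genome were. These counts compare single libraries, with no test, and the low stretches were drawn on these same ratios. The bounds of the interval, too, were set with earlier results known. The 5 leaf comparisons share the B73 library.

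**Figure D3:**
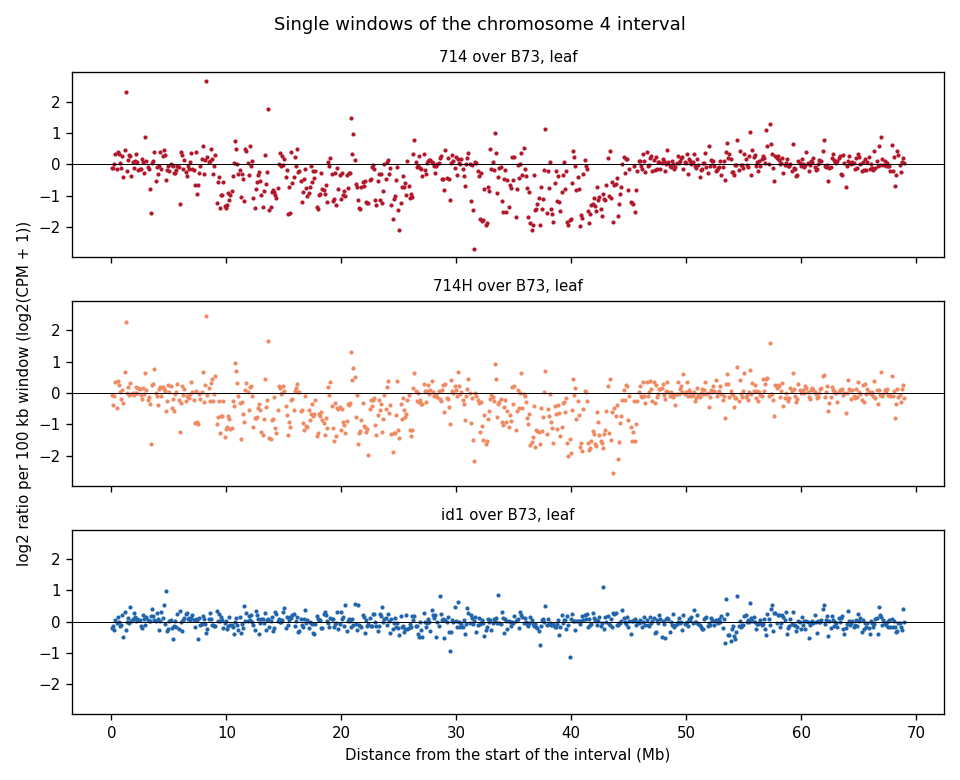
Log2 ratio to B73 leaf of each of the 690 windows, on the log2(CPM + 1) scale (y axis), against distance in Mb from 111 Mb (x axis), for 714, 714H and id1. In 714 and 714H the windows of the low stretches spread from 1.77 and 1.65 down to -2.11 and -2.54, and windows outside them reach -2.69 in 714 and 2.67 and 2.48 in 714 and 714H, while the id1 windows scatter about 0 with an SD of 0.23.

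Windows were more scattered in 714 and 714H than in the other lines. The SD of the window log2 ratio to B73 over the interval was 0.64 for 714 and 0.61 for 714H, against 0.22 for 9d9a, 0.23 for id1 and 0.26 for id4. The SD of the ratio of 714H to 714 was 0.24, with a median of -0.01, and only 1 window differed at least 2-fold between them. The lowest window of 714 against B73 was at 142.5 Mb and that of 714H at 154.6 Mb. The window at 154.6 Mb, chosen after its values were seen, had 20.2 CPM in 714 and 12.01 in 714H, against 58.4 in 9d9a, 90.7 in id1, 79.9 in id4 and 74.9 in B73 leaf. The highest window of both was at 119.2 Mb, just before the drop at 120 Mb. It had 24.4 CPM in 714 and 21.2 in 714H, against 1.77 in 9d9a, 2.10 in id1, 3.82 in id4 and 2.99 in B73 leaf, and the slope per copy missed the threshold there (adjusted p = 0.083 in edgeR). A similar window at 112.2 Mb, also chosen after its values were seen, had 15.0 and 14.7 CPM, against 1.70 to 3.29 in the other leaf libraries (adjusted p = 0.085 in edgeR).

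The 714H library, with 1 copy of the 714 allele, lay beside 714 and not midway to B73. Over the 310 windows of both low stretches the summed level was 11528 CPM in B73, 7031 CPM in 714H and 6957 CPM in 714. Midway between B73 and 714 is 9243 CPM, and 714H was 1.61% of the way from 714 to B73. The ratio of 714H to 714 was 1.0106 (95% exact interval 1.00003 to 1.0213), and 714H was above 714 in 152 of the 310 windows. Over the 380 other windows of the interval the ratio was 0.984 (0.977 to 0.992), so departures of this size were not particular to the low stretches. These ratios used library totals, without TMM scaling, whose factors were 1.025 for 714 and 1.011 for 714H. By stretch, 714H was 0.884% of the way at 120 to 137 Mb and 1.95% of the way at 143 to 157 Mb. Within the second stretch the blocks differed in sign. At 145 to 150 Mb the sum was 2072 CPM in B73, 1337 in 714H and 1241 in 714, which put 714H at 11.5% of the way, with a ratio to 714 of 1.08 (1.05 to 1.10). At 150 to 155 Mb it was 3133, 1553 and 1605 CPM, and 714H was below 714, with a ratio of 0.968 (0.947 to 0.990). In bins of 1 Mb in the low stretches, the median log2 ratio of 714H to 714 ran from -0.16 at 135 Mb to 0.29 at 143 Mb. With 1 library of each genotype these ratios have no replicate check.

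The test by copies of the 714 allele fitted a slope of log2 level per copy to each window over the 6 leaf libraries, with 0 copies in B73, id1, id4 and 9d9a, 1 in 714H and 2 in 714. The label of 714 does not state whether both chromosomes carry the allele, and 2 copies were assumed because 714H is labelled as carrying it over B73. Of the 680 windows of the interval that could be tested, 93 fell (13.7%) and 7 rose per copy at an adjusted p under 0.05 in edgeR's quasi-likelihood test with Benjamini-Hochberg adjustment over all windows of the genome. Across the genome 1.71% of windows fell and 0.639% rose, 2.35% in all. The bounds of the interval were set with earlier results known, so the gap to the genome may follow in part from that choice. The 93 slopes had a median of -0.76 and ran from -1.69 to -0.22. The low stretches held 87 of the 93, with 38 at 120 to 137 Mb and 49 at 143 to 157 Mb. Another 3 lay at 111 to 120 Mb and 3 at 137 to 143 Mb, and from 157 to 180 Mb 0 fell. Since the stretches were drawn on low 714 and 714H values, falling windows gather in them in part by that choice. The dose of the allele and the remaining genome of the 714 stocks cannot be told apart, since no other library carried it.

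Of the windows that fell with 714H between B73 and 714, the 5 steepest lay between 142 and 151 Mb. At 142.5 Mb there were 27.0, 27.2, 27.0 and 27.7 CPM in B73, id1, id4 and 9d9a, 5.20 in 714H and 3.32 in 714. The 4 lines without the allele were within 1 CPM of each other, and both libraries with it were far below. The slope was -1.69 ± 0.17 (SE), with an adjusted p of 0.00775 in edgeR, on 52 reads in 714H and 33 in 714. Another 3 of the 5 were neighbours, from 147.4 to 147.7 Mb. At 147.4 Mb there were 13.3, 14.8, 12.9 and 13.7 CPM in B73, id1, id4 and 9d9a, 3.50 in 714H and 2.92 in 714 (slope -1.27 ± 0.16, adjusted p = 0.0145 in edgeR). At 147.5 Mb there were 88.6, 91.6, 86.1 and 98.3 CPM, then 29.5 in 714H and 19.7 in 714 (slope -1.19 ± 0.11, adjusted p = 0.00746 in edgeR). At 147.6 Mb there were 38.8, 36.9, 40.0 and 37.3 CPM, then 14.1 in 714H and 9.46 in 714 (slope -1.08 ± 0.09, adjusted p = 0.00519 in edgeR). In all 3 the libraries fell into a high group of 4 and a low pair with no overlap. At 150.6 Mb there were 63.9, 73.3, 70.8 and 65.2 CPM, then 20.6 in 714H and 17.2 in 714 (slope -1.10 ± 0.15, adjusted p = 0.0243 in edgeR). That call was lost when B73, id1, id4 or 9d9a was left out, and the call at 147.4 Mb was lost without B73. With B73, 714H and 714 alone the call at 147.6 Mb was the only one of the 5 kept, and the adjusted p in edgeR or DESeq2 over all alternatives reached 0.406 at 150.6 Mb, 0.174 at 142.5 Mb, 0.154 at 147.4 Mb, 0.141 at 147.5 Mb and 0.0329 at 147.6 Mb.

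The windows that rose lay partly inside the low stretches. At 124.6 Mb there were 17.6, 18.6, 22.6 and 19.5 CPM in B73, id1, id4 and 9d9a, 57.4 in 714H and 62.4 in 714 (slope 0.95 ± 0.16, adjusted p = 0.0418 in edgeR). At 131.8 Mb there were 4.89, 4.19, 5.51 and 5.43 CPM, then 13.6 in 714H and 15.4 in 714 (slope 0.89 ± 0.14, adjusted p = 0.0249 in edgeR). The window at 132.0 Mb, 0.2 Mb farther on, had 2.89 to 3.18 CPM without the allele, 6.30 in 714H and 7.14 in 714. At 144.3 Mb there were 26.3, 26.7, 23.0 and 26.0 CPM, then 51.2 in 714H and 54.3 in 714 (slope 0.61 ± 0.10, adjusted p = 0.0271 in edgeR). In each of these 4 windows 714H stood close to 714, and neither overlapped the 4 other leaf libraries. The window at 167.9 Mb rested on few reads, with 0.799 to 1.41 CPM without the allele, 2.30 in 714H and 4.13 in 714, or 23 and 41 reads in the last pair. All 5 of these calls depended on the full set of lines and were lost when B73, id4 or 9d9a was left out, and with B73, 714H and 714 alone.

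**Figure D4:**
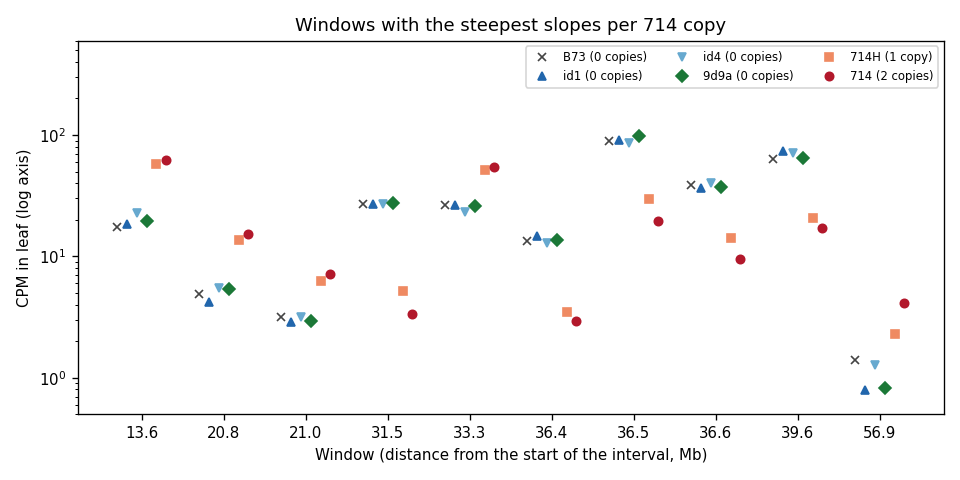
CPM in leaf on a log axis (y axis) of 10 windows, in order of distance from 111 Mb (x axis). Each window has 1 point per library, with copies running from 0 to 2. The windows have the steepest slopes per 714 copy in each direction, among those called with 714H between B73 and 714. That 714H lies between B73 and 714 in each window therefore follows from the choice. In every window the 4 lines without the allele lie together and 714H stands nearer to 714 than to them on this axis, except at 56.9 Mb (167.9 Mb on the chromosome), where it lies about midway.

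How many windows passed depended strongly on single lines and on the model. The count that fell was 20 without B73, 46 without id1, 31 without id4 and 34 without 9d9a, and it was 142 without 714 and also without 714H. With B73, 714H and 714 alone it was 11, and DESeq2 called 160. In a comparison added after the data were seen, with 714 and 714H as 1 group against the 4 other leaf lines, 179 of 680 windows fell (26.3%) and 22 rose, where 5.76% fell and 2.09% rose across the genome, 7.84% in all. The rest of chromosome 4 had 324 of 1710 windows that fell and 57 that rose, and chromosome 5 had 282 and 37 of 2155. Counted without a test, 714 and 714H were both below all 4 other leaf libraries at 265 of 680 windows (39%), against 15.6% of windows across the genome. They were both above at 100 windows (14.7%), against 17% across the genome. The low stretches held 213 of the 265, which was 68.9% of their windows tested, and the rest of the interval held 52, or 14.0%. That split follows in part from how the stretches were drawn, on low 714 and 714H values, and is no separate result. Shares of the whole interval may likewise owe in part to its bounds, set with earlier results known.

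For the interval as a whole, 714 had 2.21% of its reads there (95% exact interval 2.20% to 2.22%) and 714H had 2.19% (2.18% to 2.20%). The other leaf libraries had 2.64% in 9d9a, 2.60% in id1, 2.66% in id4 and 2.63% in B73. The level of the median window of the interval, less that of the median window outside it, was -0.64 in 714 and -0.65 in 714H on the log2(CPM + 1) scale, against -0.16 in 9d9a, -0.15 in id1, -0.18 in id4 and -0.21 in B73 leaf. By both measures 714 and 714H lay below the 4 other leaf libraries with no overlap. No p is given for these sums, since the interval was chosen with such values known.

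Leaf and root were compared over id1, id4, 9d9a and B73, with lines as the replicates of a tissue. Of 679 windows tested, 65 were higher in leaf (9.57%) and 91 lower (13.4%) at an adjusted p under 0.05 in edgeR, close to the 11.3% and 13.9% of windows across the genome (25.3% in all). With line as a replicate block, which pairs leaf and root of a line, the counts were 107 and 124. No share across the genome is given with this block, so closeness to the genome was shown only without the pairing. Most differences were small. The 156 windows called had a median absolute log2 value of 0.43, and 155 of them had the same direction in all 4 lines. That agreement follows in part from the calls, which used the same libraries, and it was not counted across the genome. The windows called were found in every stretch, at 15.7%, 21.2%, 23.3%, 26.4% and 25.0% of windows tested in order of position. The share of reads that fell in the interval was 2.63 ± 0.0238% in leaf and 2.71 ± 0.0765% in root (SD, n = 4 lines each), and the ranges overlapped, with 2.60% to 2.66% in leaf and 2.62% to 2.78% in root. The median window of the interval, relative to that outside, was -0.17 ± 0.03 in leaf and -0.18 ± 0.03 in root.

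By position, the medians of the 4 leaf and the 4 root libraries did not overlap in 5 of the 14 blocks, with leaf above root in 4 and below it in 1. Such blocks were not counted across the genome, so the number does not set the interval apart. At 115 to 120 Mb, where the median window was lowest, it had 9.09 to 9.48 CPM in leaf and 6.78 to 7.92 CPM in root. At 120 to 125 Mb it had 12.5 to 13.4 CPM in leaf and 9.62 to 10.3 CPM in root. Leaf was also above root at 130 to 135 Mb, with 12.3 to 14.1 CPM in leaf and 11.0 to 11.8 CPM in root, and narrowly at 140 to 145 Mb, with 25.9 to 27.1 CPM in leaf and 22.4 to 25.8 CPM in root. At 170 to 175 Mb it had 35.9 to 38.9 CPM in leaf and 41.3 to 44.8 CPM in root, which is the opposite direction. At 155 to 160 Mb the ranges overlapped, with 59.8 to 62.9 CPM in leaf and 58.1 to 67.1 CPM in root.

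The window at 121.9 Mb differed most. It had 83.6, 69.5, 78.4 and 89.7 CPM in leaf of id1, id4, 9d9a and B73, against 5.77, 8.88, 9.57 and 7.89 CPM in root. Every leaf library was more than 7 times above every root library. The log2 difference was 3.29 ± 0.16 (SE), with an adjusted p of 2.44e-06 in edgeR. This window lies inside the first low stretch, yet 714 and 714H had 90.0 and 113 CPM there, at or above the other leaf libraries. At 136.0 Mb leaf had 113, 136, 122 and 150 CPM and root 55.7, 79.5, 58.5 and 36.8 CPM (log2 1.15 ± 0.22, adjusted p = 0.00783 in edgeR). Here 714 and 714H had 34.4 and 54.2 CPM, far below the other leaf libraries and within or below the root range, and the leaf to root call was lost without 9d9a (adjusted p = 0.062 in edgeR). At 146.4 Mb leaf had 91.6 ± 10.8 CPM and root 45.5 ± 10.2 CPM (SD, n = 4 lines each). At 178.9 Mb leaf had 14.0 ± 0.731 CPM and root 6.79 ± 0.826 CPM, and at 113.3 Mb leaf had 6.71 ± 0.416 CPM and root 3.14 ± 0.835 CPM. These 3 had log2 differences of 0.99 to 1.07 and no overlap between tissues. The named windows were chosen for a large difference between the same libraries, so such gaps follow largely from that choice.

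Root was higher by at least 2-fold at 5 windows, and these are the 5 named. At 144.1 Mb leaf had 12.1, 10.7, 10.03 and 12.3 CPM in id1, id4, 9d9a and B73 and root had 54.4, 45.2, 45.1 and 63.6 CPM. All root libraries were well above all leaf libraries, with a log2 difference of -2.22 ± 0.13 and an adjusted p of 3.99e-06 in edgeR. At 171.0 Mb leaf had 28.3 ± 2.30 CPM and root 115 ± 22.3 CPM (log2 -2.05 ± 0.14, adjusted p = 1.97e-05 in edgeR), with 9d9a root at 148 CPM and the other 3 root libraries at 102 to 104 CPM. At 152.0 Mb leaf had 26.3 ± 2.66 CPM and root 72.3 ± 8.40 CPM. At 125.9 Mb leaf had 34.4 ± 3.19 CPM and root 72.4 ± 4.23 CPM. At 156.1 Mb leaf had 19.3 ± 2.74 CPM and root 44.1 ± 5.36 CPM, while 714 and 714H leaf had 9.36 and 10.1 CPM. Each of these calls held under every alternative tried.

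**Figure D5:**
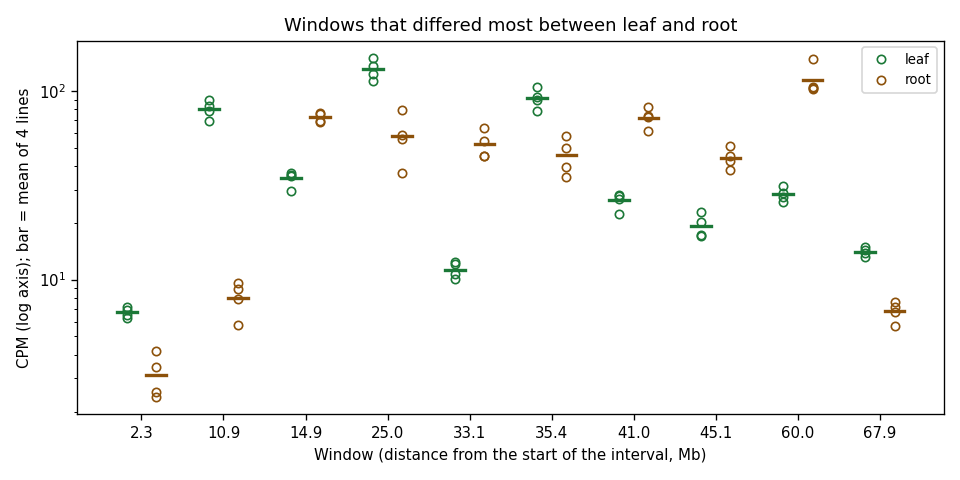
CPM on a log axis (y axis) of the 10 windows that differed most between leaf and root, in order of distance from 111 Mb (x axis), with 1 open point per line and a bar at the mean of 4 lines. The tissues do not overlap in any of the 10 windows, which follows largely from choosing windows called with the same direction in 4 lines. The widest gap is at 10.9 Mb from the start (121.9 Mb on the chromosome), with a mean of 80.3 CPM in leaf and 8.03 CPM in root.

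The lines id1, id4 and 9d9a were each set against B73 over both tissues, and the 3 comparisons share the B73 libraries. Few windows of the interval passed an adjusted p under 0.05 in edgeR. Of 681 tested, 5 rose and 5 fell in id1 (0.734% each), against 1.94% and 3.58% of windows across the genome (5.51% in all). In id4 9 rose (1.32%) and 5 fell (0.734%), against 1.42% and 3.09% across the genome (4.51% in all). In 9d9a 6 rose (0.881%) and 5 fell (0.734%), against 1.54% and 3.08% across the genome (4.61% in all). DESeq2 called fewer in each line, between 2 and 3 in either direction.

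The largest single difference of these lines was at 164.3 Mb in id4. There id4 leaf had 15.7 CPM and id4 root 8.97 CPM, against 3.15 and 1.56 CPM in B73, a log2 difference of 2.36 ± 0.24 (SE; adjusted p = 6.05e-06 in edgeR). The libraries of the other lines had 0.710 to 1.91 CPM, so id4 stood apart in both tissues. Nearby windows were also higher in id4. At 164.7 Mb it had 4.24 and 2.47 CPM in leaf and root against 0.761 and 1.15 CPM in B73 (log2 1.84 ± 0.41, adjusted p = 0.0138 in edgeR), and at 164.5 Mb 4.24 and 1.56 CPM against 0.761 and 1.23 CPM (log2 1.57 ± 0.41, adjusted p = 0.0406 in edgeR). Both calls were lost in DESeq2, and at 164.5 Mb the root libraries lay close together, at 0.620 to 1.56 CPM. The bin at 164 Mb was also the highest of id4 against B73 in leaf, with a median ratio of 0.34, and the lowest of id1, with -0.22.

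At 115.7 Mb id1 leaf had 25.6 CPM and id1 root 19.4 CPM, against 12.4 and 6.99 CPM in B73 (log2 1.22 ± 0.16, adjusted p = 8.28e-05 in edgeR). The other leaf libraries had 7.90 to 12.9 CPM and the other root libraries 6.73 to 7.97. At 144.6 Mb, a much more read window, id1 had 174 CPM in both tissues against 96.1 in leaf and 116 in root of B73 (log2 0.71 ± 0.10, adjusted p = 0.000179 in edgeR), while 9d9a had 142 CPM in leaf and 120 CPM in root. A smaller rise at 139.5 Mb, with 8.19 and 7.19 CPM against 4.24 and 4.77 CPM, was lost in DESeq2. In 9d9a the windows that rose most were at 133.3 Mb, with 35.3 CPM in both leaf and root against 17.1 and 27.5 CPM in B73 (log2 0.73 ± 0.15, adjusted p = 0.00635 in edgeR), and at 143.7 Mb, with 68.7 and 63.2 CPM against 42.4 and 44.6 CPM (log2 0.64 ± 0.11, adjusted p = 0.00151 in edgeR). At 142.6 Mb 9d9a had 20.5 and 23.3 CPM against 15.3 and 14.1 CPM, and id4 had 24.3 and 24.4 CPM, but the 9d9a call was lost in DESeq2. This window adjoins 142.5 Mb, the steepest fall per 714 copy, and there 714 with 16.3 CPM lay within the 15.3 to 24.3 CPM of the other leaf libraries and 714H with 15.1 CPM just below them.

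At 139.9 Mb all 3 lines were lower than B73. The levels in leaf and root were 45.7 and 46.2 CPM in id1, 42.0 and 52.0 CPM in id4 and 45.8 and 39.7 CPM in 9d9a, against 66.3 and 67.9 CPM in B73. The log2 differences were -0.55 ± 0.12, -0.52 ± 0.12 and -0.61 ± 0.12, with adjusted p of 0.00655, 0.013 and 0.00384 in edgeR. The 714 and 714H leaf libraries had 37.1 and 42.9 CPM, so B73 stood apart from every other line. The steepest fall in 9d9a was at 149.5 Mb, inside the second low stretch, where 9d9a leaf had 40.5 CPM and 9d9a root 27.9 CPM, against 61.1 and 56.2 CPM in B73 (log2 -0.76 ± 0.11, adjusted p = 0.000433 in edgeR). The 714 and 714H leaf libraries had 39.8 and 45.6 CPM there, next to 9d9a. The remaining falls named by the rule were 122.2 and 143.5 Mb in id1, 146.4 and 143.5 Mb in id4 and 129.9 Mb in 9d9a, with log2 differences from -0.70 to -0.46. The calls at 122.2, 143.5 and 129.9 Mb were lost in DESeq2.

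Set beside the rest of the genome, the interval held 93 of the 348 windows that fell per 714 copy, in 690 of the 20584 windows. The share of windows called in either direction was 14.7% in the interval, 3.22% in the rest of chromosome 4, 6.73% on chromosome 5 and 1.92% over all windows outside the interval. Falling windows numbered 44 in the rest of chromosome 4 and 136 on chromosome 5, and rising ones 11 and 9. The share of windows at which both 714 and 714H lay below all 4 other leaf libraries was 39.0% in the interval, 32.8% in the rest of chromosome 4 and 24.2% on chromosome 5. On that measure the interval and the rest of its chromosome were closer than on the count of slopes. No test of the difference between regions was made, since neighbouring windows are not replicates. The bounds of the interval were set with earlier results of these data known, so its excess may follow in part from that choice.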

How the data were processed

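Values deposited by the authors were counts of reads per 100 kb window, per the file headers. The submitters' processing notes name Bowtie. No source used here gives its settings, the build or the handling of reads with several matches. A count therefore depends on how well a line's sequence matches the reference. Windows not listed were taken as 0, and CPM used file totals. Counts of all windows of the genome went into edgeR 4.0.16 under R 4.3.3 (TMM scaling, its default low-count filter, a robust quasi-likelihood fit, Benjamini-Hochberg threshold 0.05), after the script was tested on simulated data. DESeq2 1.42.0 was an alternative. The SE of a log2 value came from the F statistic. The labels do not say that libraries came from separate plants, and p-values measure only how these libraries spread. The interval, lists and rules were chosen with earlier results of these data known. Planned permutation tests of interval sums are therefore not quoted. Named windows were the 5 most read, the 5 farthest per direction for leaf against root (same direction in 4 lines), the 3 per direction for each line (same direction in both tissues) and the 5 steepest per direction for the 714 slope (714H between B73 and 714). Leaf and root of a line share a genotype, which pairs them. Their deviations from the tissue means correlated at 0.64 in B73, 0.80 in id1, 0.56 in id4 and 0.67 in 9d9a, and at most 0.004 for other pairs. The residual degrees of freedom were 6 for leaf against root, 3 for lines and 4 for the slope.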

Additional observations from a re-analysis of the deposited data

Results flagged for a closer look

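Among 82 sets of library values, most of them leaf or root libraries at the named windows, 12 were flagged, all at named windows. In each, 1 library had a gap to the nearest of the others that was too large a part of the whole range by Dixon's criterion. Chance gives about 1 in 20 for sets not chosen on their values. That rate does not apply here, since many of these windows were named because a line or tissue differed there. In leaf, id1 was high at 115.7 Mb (25.6 CPM, others 7.90 to 12.9), and id4 was high at 164.3 Mb (15.7 CPM, others 1.40 to 3.15), at 164.5 Mb (4.24 CPM, others 0.708 to 1.81) and at 164.7 Mb (4.24 CPM, others 0.299 to 1.21). B73 leaf was high at 139.9 Mb (66.3 CPM, others 37.1 to 45.8), and 9d9a leaf was low at 129.9 Mb (7.08 CPM, others 9.48 to 10.9). In root, id1 was high at 115.7 Mb (19.4 CPM, others 6.73 to 7.97), id4 at 164.3 Mb (8.97 CPM, others 0.710 to 1.68), B73 at 143.5 Mb (55.3 CPM, others 34.8 to 37.6) and 9d9a at 171.0 Mb (148 CPM, others 102 to 104). The 9d9a root library was low at 131.8 Mb (3.45 CPM, others 4.11 to 4.17) and at 132.0 Mb (2.13 CPM, others 2.29 to 2.31). At 115.7 and 164.3 Mb the same line stood apart in both tissues.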

How the results depend on the processing

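With 1 library for each line and tissue, all tests treat lines as replicates, and the copy series has 1 library at each of 1 and 2 copies. Windows of few reads, such as 164.5, 164.7 and 167.9 Mb, carry large counting error. Where leaving out 714 or 714H left 1 library with the allele, that library was taken to vary like the others. The 38 window results gave 280 values under alternatives, of which 233 kept their side of the threshold, 47 lost it and 0 changed sign. With line as a replicate block, 107 windows were higher in leaf, against 65 without it, and the block changed no other count of calls by over 1.5 times. DESeq2 called 2 higher and 3 lower in id1, 3 and 2 in id4, 3 and 3 in 9d9a, and 13 and 160 for the slope per copy. With 714 and 714H as 1 group, an alternative chosen after seeing the data, 22 rose and 179 fell. With B73, 714H and 714 alone, 0 rose and 11 fell in edgeR, where 23 and 135 had an unadjusted p under 0.05. The 0 that rose compare with 13 in DESeq2 over all 6 leaf libraries. Leaving out 1 line at a time, windows higher in leaf numbered 35 to 51 and lower 52 to 79. In id1 4 were higher and 7 lower, in id4 7 to 8 and 2 to 5, and in 9d9a 4 to 6 and 3 to 7. For the slope 0 to 12 rose and 20 to 142 fell, and 0 rose without B73, id4 or 9d9a, where 41 to 45 had an unadjusted p under 0.05 in edgeR. The level of the interval per copy, -0.27 in all, was -0.48 to -0.23. The median level of leaf minus root, 0.0062 in all, was -0.0026 to 0.0200, the negative value being that without id1. The share of reads in leaf minus root was -0.112 to -0.0496 percentage points, and -0.0057 without the most-read windows.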
